A study of Mus musculus with 6 samples.

Results

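The genes described here carry glucose into the cell, break it down to pyruvate and move lactate across the membrane. They comprise 31 of the 34745 genes in the table, chosen by symbol from a list of carriers, glycolytic enzymes and regulators. Of the 31, 30 passed the filter on low counts, which kept genes with about 10 or more counts in enough libraries. Aldoc, the brain aldolase, was left out and had at most 5 counts in any library.

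Sequencing covered total RNA of the left ventricle in male wild-type C57BL/6 mice, given as 8 weeks old. In transverse aortic constriction (TAC) a ligature narrows the aorta and raises the load on the heart, and the sham operation leaves the ligature out. Tissue was taken 6 weeks later, and 3 libraries are labelled TAC and 3 are labelled Sham, with 17399510 to 28401399 counts each. Nothing in the labels ties a library to its own animal, and a p-value here therefore reflects how much these libraries vary.

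Of 3 markers of pressure overload, Nppa and Acta1 ran against the labels and Myh7 overlapped between them. Nppa, the gene of atrial natriuretic peptide, which the overloaded ventricle normally raises, stood at 92.2, 64.3 and 95.1 CPM in TAC-labelled libraries 1, 2 and 3, against 772, 1894 and 595 CPM in Sham-labelled libraries 1, 2 and 3. Acta1, the skeletal actin of the fetal heart programme, had 641, 446 and 121 CPM in TAC-labelled libraries, against 3282, 5029.5 and 3060.3 CPM in Sham-labelled libraries. Myh7, the slow myosin heavy chain, was at 212, 65.7 and 6050.5 CPM in TAC-labelled libraries, against 1816, 6323 and 2072 CPM in Sham-labelled libraries, with TAC 3 far above the other TAC-labelled libraries. By edgeR the log2 difference was -3.70 for Nppa (adjusted p = 0.0222), -3.23 for Acta1 (adjusted p = 0.0448) and -0.69 for Myh7 (adjusted p = 0.814). The groups are therefore called by their labels throughout, with TAC 1 to 3 and Sham 1 to 3 for the single libraries, and every direction below is that of the labels. CPM here are counts scaled by the library total and its TMM factor, and are used to compare libraries. FPKM, which also divide by a length, are used to compare genes.

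In the heart most glucose enters through GLUT4, encoded by Slc2a4, which insulin and contraction move to the surface, while GLUT1, encoded by Slc2a1, sits there all the time. Hexokinase traps glucose as glucose 6-phosphate, phosphofructokinase commits it to glycolysis, and the bifunctional PFKFB enzymes make and break down its strongest allosteric activator. Pyruvate can enter mitochondria or be turned into lactate, which monocarboxylate carriers move in or out of the cell. The adult heart burns mainly fatty acids, takes up lactate as a fuel, and is known to shift toward glucose use under pressure overload.

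Of the 30 members tested, 2 changed past an adjusted p of 0.05 in edgeR's quasi-likelihood test, in opposite directions. The glucose carrier gene Slc2a1 was lower in TAC-labelled libraries, and the monocarboxylate carrier gene Slc16a7 was higher. Over all 15198 genes tested, 217 (1.43%) were called, 49 (0.322%) higher and 168 (1.11%) lower in TAC-labelled libraries. With library totals left unscaled the split was 42 and 296. In 12 of the 30 members the groups did not overlap (40.0%), 7 higher and 5 lower in TAC-labelled libraries, against 27% of all genes tested (13.4% higher and 13.6% lower). An unadjusted p under 0.05 was reached by 7 higher and 4 lower members, 36.7% of those tested, against 20.9% of all genes (9.56% higher and 11.4% lower). The median log2 difference was 0.015 over the members and 0.0075 over all genes tested. DESeq2 on the same counts called 9 members, the 2 above together with Slc2a12, Pfkm, Eno3, Ldhb and Pfkfb2, higher in TAC-labelled libraries, and Pfkp and Slc16a3, lower. Over all 15646 genes to which DESeq2 gave an adjusted p, it called 7.44%, 2.91% higher and 4.53% lower.

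**Figure D1:**
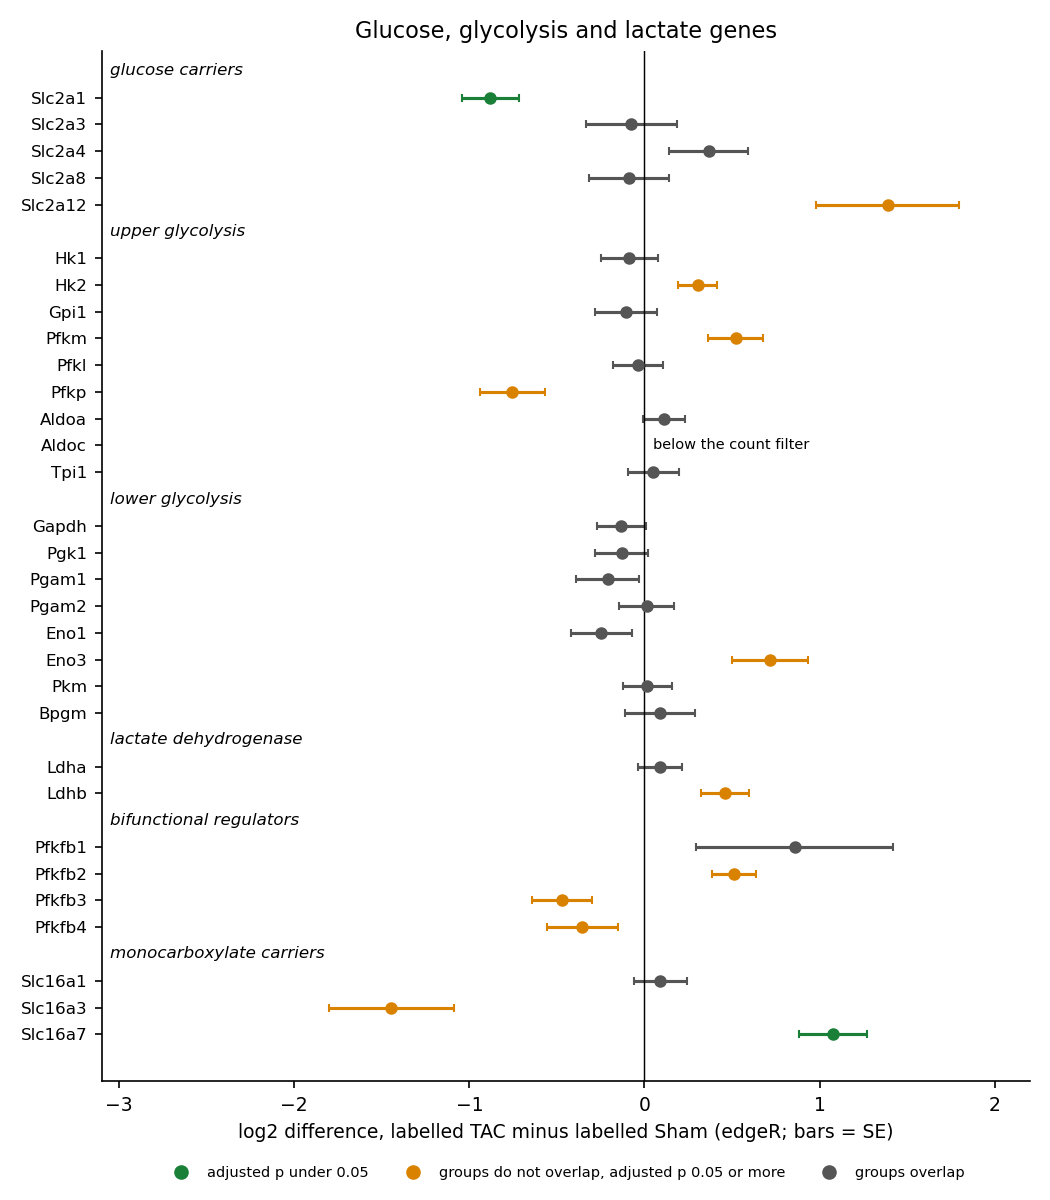
Log2 difference between the TAC-labelled libraries and the Sham-labelled ones for each member (points; bars are SE), grouped by role, with positive values higher in TAC-labelled libraries. Green points passed, orange ones did not pass though their groups did not overlap, and grey ones overlapped. Slc2a1 at -0.88 and Slc16a7 at 1.08 passed an adjusted p of 0.05, and Slc16a3, Pfkp and Slc2a12 lie farther from 0 than most other members without passing.

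Slc2a1, which encodes the basal glucose carrier GLUT1 (chromosome 4, 119108711 to 119137983 on GRCm38), was lower in TAC-labelled libraries. Its level was 11.5, 12.3 and 12.4 CPM in TAC-labelled libraries 1, 2 and 3, against 18.0, 26.5 and 22.2 CPM in Sham-labelled libraries 1, 2 and 3. Every TAC-labelled library lay below every Sham-labelled library, and Sham 2 was the highest. The fall was to 0.543 of the level in the Sham-labelled libraries (log2 difference -0.88, SE 0.16, edgeR adjusted p = 0.0488). The call was lost without TAC 1 (log2 difference -0.85, adjusted p = 0.148), TAC 2 (-0.89, 0.131), TAC 3 (-0.90, 0.0988), Sham 2 (-0.73, 0.136) or Sham 3 (-0.88, 0.139), and kept without Sham 1.

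Slc2a4, the insulin-responsive carrier gene (chromosome 11, 69942539 to 69948188), had 289, 312 and 254 CPM in TAC-labelled libraries 1, 2 and 3, against 308, 170.1 and 185 CPM in Sham-labelled libraries 1, 2 and 3. Sham 1 lay among the TAC-labelled libraries, while Sham 2 and Sham 3 were below all of them, and the gene did not pass (log2 difference 0.37, SE 0.22, edgeR adjusted p = 0.393). Without Sham 1 the log2 difference was 0.68 (adjusted p = 0.0535), and without Sham 2 it was 0.21 (adjusted p = 0.726). Per length, Slc2a4 was the most abundant glucose carrier gene in every library, with 44.1 ± 4.24 FPKM in TAC-labelled libraries and 35.8 ± 11.9 FPKM in Sham-labelled libraries (SD, n = 3 each). Slc2a1 had 2.26 ± 0.125 FPKM in TAC-labelled libraries and 4.35 ± 0.793 FPKM in Sham-labelled libraries. The length behind the FPKM of Slc2a4 exceeds its gene span, which understates its level but not its differences between libraries. Other genes may be understated too, so its level against theirs is uncertain.

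Set against each other within a library, Slc2a1 stood at 0.0481, 0.0477 and 0.0591 of the Slc2a4 FPKM in TAC 1, 2 and 3, and at 0.0707, 0.188 and 0.145 in Sham 1, 2 and 3. These ratios did not overlap between the groups and differed by -1.28 (exact two-sided permutation p = 0.1, adjusted p = 0.167) on the log2 scale. With 3 libraries against 3 the exact permutation test cannot go below p = 0.1, and the adjustment covers the 15 ratios computed. The share of the 5 glucose carrier genes' summed FPKM held by Slc2a1 was 4.51% ± 0.474 in TAC-labelled libraries and 11.0% ± 4.46 in Sham-labelled libraries (SD, n = 3 each). Slc2a4 held 87.5% ± 1.69 in TAC-labelled libraries and 83.1% ± 4.44 in Sham-labelled libraries.

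Slc2a12, which encodes GLUT12, a carrier also found in heart and skeletal muscle (chromosome 10, 22645011 to 22704285), had the largest positive log2 difference of the members. It stood at 12.4, 12.8 and 13.3 CPM in TAC-labelled libraries 1, 2 and 3, against 7.51, 1.94 and 5.37 CPM in Sham-labelled libraries 1, 2 and 3. The 3 TAC-labelled libraries lay close together above all 3 labelled Sham, of which Sham 2 was the lowest (log2 difference 1.39, SE 0.41, edgeR adjusted p = 0.124). DESeq2 called it (adjusted p = 0.0113). Relative to Slc2a4, its FPKM were 0.0591, 0.0566 and 0.0726 in TAC-labelled libraries and 0.0337, 0.0158 and 0.0401 in Sham-labelled libraries, again without overlap, 1.17 (exact two-sided permutation p = 0.1, adjusted p = 0.167) on the log2 scale. That difference was 0.54 with 1 added to each FPKM and 0.76 without Sham 2. The locus overlaps that of Tbpl1, which had 1828 counts over the 6 libraries where Slc2a12 had 1080. Since no source says whether strand was used in counting, reads of the overlap cannot be assigned with certainty.

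The other carriers were scarce. Slc2a3, the high-affinity carrier GLUT3 of neurons, had 3.53, 1.99 and 3.41 CPM in TAC-labelled libraries and 2.92, 3.07 and 3.42 CPM in Sham-labelled libraries (log2 difference -0.075, SE 0.26, edgeR adjusted p = 0.899). Slc2a8, which encodes the intracellular carrier GLUT8, was at 4.06, 6.16 and 6.61 CPM in TAC-labelled libraries and 6.41, 5.05 and 6.46 CPM in Sham-labelled libraries (log2 difference -0.088, SE 0.23, edgeR adjusted p = 0.858). In both the groups overlapped. The log2 ratio of Slc2a3 to Slc2a1 differed by 0.74 (exact two-sided permutation p = 0.2, adjusted p = 0.231), and that of Slc2a8 to Slc2a4 by -0.53 (exact two-sided permutation p = 0.2, adjusted p = 0.231).

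**Figure D2:**
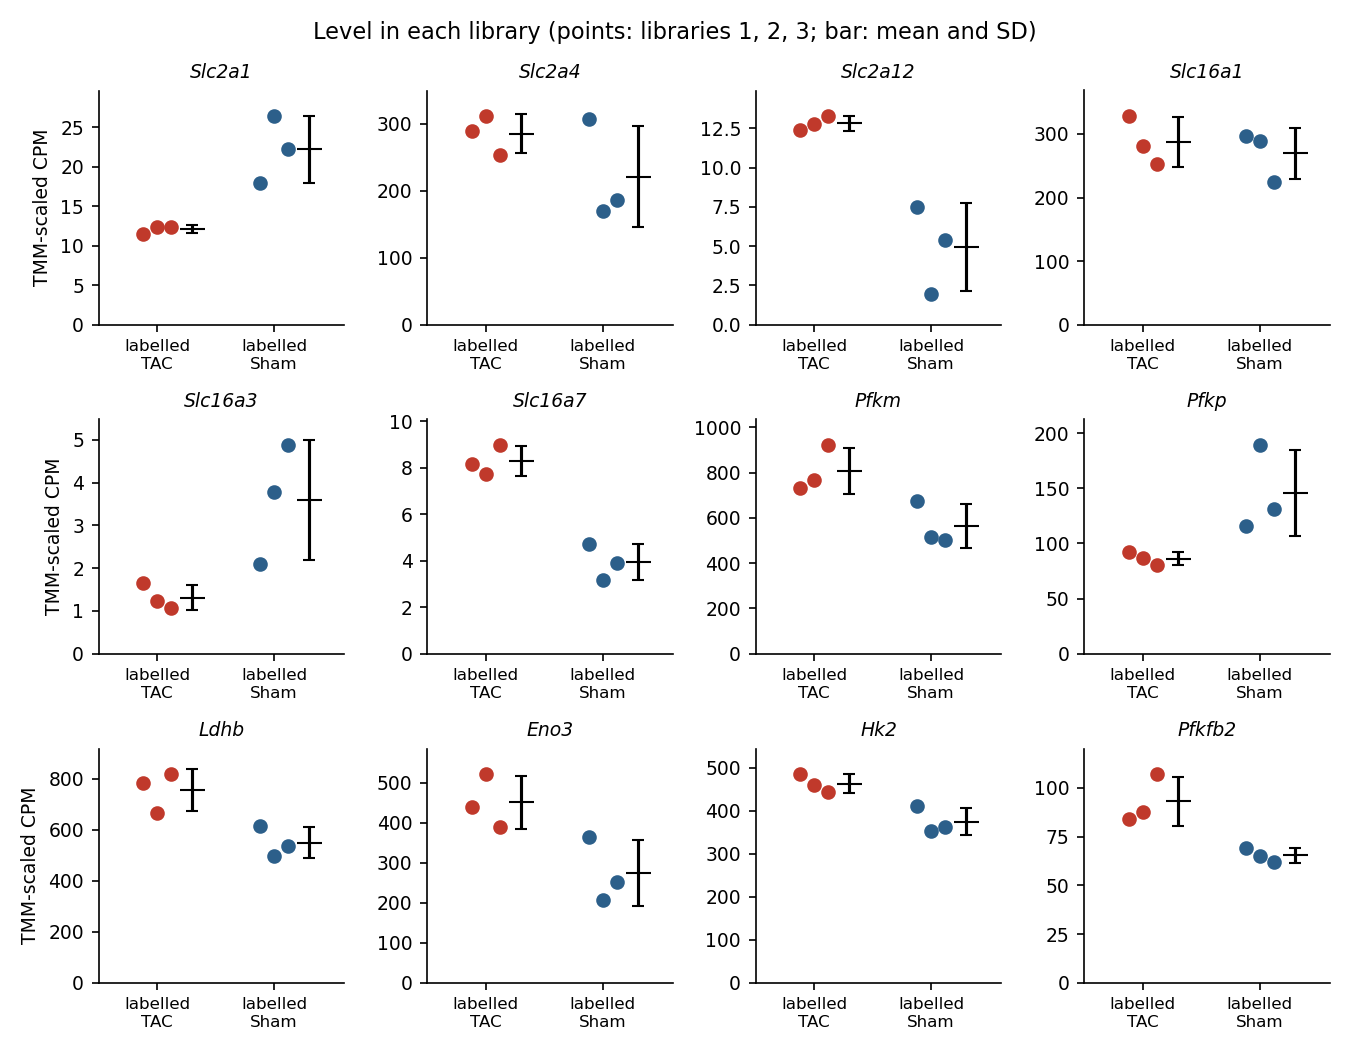
TMM-scaled CPM of 12 members in each library (points, left to right libraries 1, 2 and 3 of each label; the bar beside them is the mean and SD of the 3). Slc2a1, Slc16a3 and Pfkp lie lower in TAC-labelled libraries and Slc2a12, Slc16a7, Pfkm, Ldhb, Eno3, Hk2 and Pfkfb2 lie higher without overlap, whereas Slc2a4 and Slc16a1 overlap.

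To show the letters beside these levels, the 250 bases before the annotated start are printed for some carriers and the lactate dehydrogenases (RefSeq, GRCm38.p6, first window listed for each gene). The carriers Slc16a1 and Slc2a8 also have windows, which are not printed. Capitals mark the core ACGTG of the hypoxia response element on either strand, including where it lies within the E-box CACGTG. The windows are chr4:119108495-119108744 (plus strand) for Slc2a1, chr10:22644761-22645010 (plus strand) for Slc2a12, chr11:120948817-120949066 (plus strand) for Slc16a3, chr7:46845554-46845803 (plus strand) for Ldha and chr6:142507958-142508207 (minus strand) for Ldhb.
Slc2a1: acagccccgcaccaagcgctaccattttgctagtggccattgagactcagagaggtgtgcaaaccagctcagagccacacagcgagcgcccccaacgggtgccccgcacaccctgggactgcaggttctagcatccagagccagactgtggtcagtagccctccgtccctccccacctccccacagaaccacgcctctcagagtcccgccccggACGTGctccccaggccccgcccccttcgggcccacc
Slc2a12: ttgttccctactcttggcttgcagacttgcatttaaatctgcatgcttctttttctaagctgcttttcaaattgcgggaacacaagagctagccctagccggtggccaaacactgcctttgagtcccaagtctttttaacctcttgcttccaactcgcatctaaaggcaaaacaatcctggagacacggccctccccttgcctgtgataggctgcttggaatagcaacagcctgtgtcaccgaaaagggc
Slc16a3: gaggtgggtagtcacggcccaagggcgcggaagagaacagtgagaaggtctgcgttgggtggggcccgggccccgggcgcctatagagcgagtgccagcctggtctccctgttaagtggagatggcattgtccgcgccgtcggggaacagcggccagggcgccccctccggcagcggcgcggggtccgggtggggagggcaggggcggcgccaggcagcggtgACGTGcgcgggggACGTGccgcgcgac
Ldha: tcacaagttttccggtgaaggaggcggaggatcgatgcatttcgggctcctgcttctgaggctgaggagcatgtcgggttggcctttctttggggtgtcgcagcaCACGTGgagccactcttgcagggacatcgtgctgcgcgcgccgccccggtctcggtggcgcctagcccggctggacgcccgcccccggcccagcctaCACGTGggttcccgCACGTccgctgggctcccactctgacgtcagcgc
Ldhb: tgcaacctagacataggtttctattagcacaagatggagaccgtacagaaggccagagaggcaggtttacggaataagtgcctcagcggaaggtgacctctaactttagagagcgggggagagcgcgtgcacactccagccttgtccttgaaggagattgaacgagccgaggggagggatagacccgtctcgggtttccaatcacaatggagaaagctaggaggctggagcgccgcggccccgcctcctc
The Slc2a1 window holds the core once, starting 36 bases before the start. Slc16a3 holds it at 27 and 14 bases, and Ldha at 145, 48 and 34 bases, of which those at 145 and 48 are whole E-boxes. The Slc2a12 and Ldhb windows do not hold it. The other form of the core, GCGTG, is not capitalised and occurs once each in the Slc2a1 and Ldhb windows and in none of the other 3. RefSeq's starts are not those of the deposited table: the Slc16a3 and Ldha windows lie inside the gene spans of that table, and the Slc2a1 window runs into its span. Of the 31 members, 28 matched the promoter table, all but Slc2a3, Slc2a4 and Slc16a7. ACGTG on either strand was in 10 of the 28 (35.7%), against 16.6% of 27025 genes with a window of the same length. GCGTG was in 13 (46.4%) against 28.2%, and CACGTG, which contains ACGTG, in 4 (14.3%) against 6.05%. Of the carrier windows not printed, that of Slc16a1 holds ACGTG and that of Slc2a8 does not. Other members without overlap between the groups also have windows. Of those higher in TAC-labelled libraries, Hk2, Pfkm and Pfkfb2 hold ACGTG and Eno3 does not. Of those lower, Pfkfb3 holds it and Pfkp and Pfkfb4 do not. Base composition was not matched, and a match is a description of the letters, not a binding site.

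None of the 8 tested genes of the upper pathway passed in edgeR, and limma called 0. An unadjusted p under 0.05 was reached by 3 (37.5%), against 20.9% of all genes. DESeq2 called 2, against 7.44% of all genes to which it gave an adjusted p. Among the kinases at the head of glycolysis, Hk2, the muscle hexokinase that insulin induces, had 487, 459.7 and 443 CPM in TAC-labelled libraries, against 411, 353 and 361 CPM in Sham-labelled libraries. The groups did not overlap, but the difference was small and did not pass (log2 difference 0.30, SE 0.11, edgeR adjusted p = 0.177). Hk1, the hexokinase of most other tissues, had 255, 201 and 162 CPM in TAC-labelled libraries, against 211, 221 and 223 CPM in Sham-labelled libraries, with TAC 1 the highest and TAC 3 the lowest of all 6 (log2 difference -0.086, SE 0.16, edgeR adjusted p = 0.804). Hk2 held 80.4% ± 2.83 of the summed FPKM of Hk1 and Hk2 in TAC-labelled libraries and 75.5% ± 1.99 in Sham-labelled libraries (SD, n = 3 each). The Hk2 to Hk1 ratio was 3.45, 4.13 and 4.94 in TAC-labelled libraries and 3.51, 2.88 and 2.93 in Sham-labelled libraries, and TAC 1 fell within the Sham-labelled range. The log2 difference of that ratio was 0.42 (exact two-sided permutation p = 0.2, adjusted p = 0.231).

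The phosphofructokinase genes differed in the sign of their log2 difference. Pfkm, the muscle subunit, had 733, 769 and 923 CPM in TAC-labelled libraries, against 676, 514 and 501 CPM in Sham-labelled libraries, and every TAC-labelled library lay above every one labelled Sham (log2 difference 0.52, SE 0.16, edgeR adjusted p = 0.133). Pfkp, the platelet subunit, had 92.1, 86.6 and 80.1 CPM in TAC-labelled libraries, against 116, 189.6 and 131 CPM in Sham-labelled libraries, again without overlap and with Sham 2 the highest (log2 difference -0.75, SE 0.19, edgeR adjusted p = 0.0903). Pfkl, the liver subunit, did not part the groups, with 100.4, 106 and 82.6 CPM in TAC-labelled libraries, against 114, 95.2 and 87.6 CPM in Sham-labelled libraries (log2 difference -0.037, SE 0.14, edgeR adjusted p = 0.909). DESeq2 called Pfkm (adjusted p = 0.0461) and Pfkp (adjusted p = 0.00934). Pfkm held 90.9% ± 1.80 of the summed FPKM of the 3 genes in TAC-labelled libraries and 85.3% ± 2.15 in Sham-labelled libraries, and Pfkp 2.44% ± 0.406 in TAC-labelled libraries and 5.63% ± 1.95 in Sham-labelled libraries. The Pfkp to Pfkm ratio was 0.0313, 0.0280 and 0.0216 in TAC-labelled libraries and 0.0427, 0.0918 and 0.0649 in Sham-labelled libraries, a log2 difference of -1.25 (exact two-sided permutation p = 0.1, adjusted p = 0.167). For Pfkl to Pfkm it was 0.0831, 0.0837 and 0.0542 in TAC-labelled libraries and 0.102, 0.112 and 0.106 in Sham-labelled libraries, a log2 difference of -0.56 (exact two-sided permutation p = 0.1, adjusted p = 0.167). Pfkp, with 15384 counts over the 6 libraries, overlaps the locus of Pitrm1, with 6941, and Pfkm, with 86338, that of Senp1, with 4391.

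The rest of the upper pathway showed small differences with overlapping groups. Aldoa, the muscle aldolase, had more counts than any other member and stood at 1346, 1288 and 1339 CPM in TAC-labelled libraries, against 1361, 1203 and 1115 CPM in Sham-labelled libraries (log2 difference 0.11, SE 0.12, edgeR adjusted p = 0.649). Tpi1, triose phosphate isomerase, had a log2 difference of 0.049 (SE 0.15), with the opposite sign when library totals were left unscaled, and Gpi1, glucose 6-phosphate isomerase, of -0.11 (SE 0.18). Tpi1 averaged 387 ± 39.5 CPM in TAC-labelled libraries and 374 ± 57.4 CPM in Sham-labelled libraries (SD, n = 3 each), and Gpi1 averaged 309 ± 41.0 CPM in TAC-labelled libraries and 332 ± 70.5 CPM in Sham-labelled libraries (SD, n = 3 each). The means lay closer than the SD in both. Aldoc was listed at 0 in TAC 1 and had 1 and 5 counts in TAC 2 and 3, against 3, 3 and 4 counts in Sham 1, 2 and 3, too few to compare.

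Eno3, the muscle enolase, was the one gene of the lower pathway whose groups did not overlap (12.5%, against 27% of all genes tested). It had 439, 523 and 391 CPM in TAC-labelled libraries 1, 2 and 3, against 365, 207 and 251 CPM in Sham-labelled libraries 1, 2 and 3, with all TAC-labelled libraries above all the Sham-labelled ones and Sham 1 nearest to them (log2 difference 0.72, SE 0.22, edgeR adjusted p = 0.131). It passed without Sham 1 (log2 difference 0.97, adjusted p = 0.0448) and with DESeq2 (adjusted p = 0.0296). Eno1, the enolase of most tissues, had 72.2, 63.0 and 45.2 CPM in TAC-labelled libraries, against 67.5, 78.7 and 67.7 CPM in Sham-labelled libraries, and the groups overlapped (log2 difference -0.25, SE 0.18, edgeR adjusted p = 0.464). The Eno1 to Eno3 ratio was 0.0658, 0.0481 and 0.0463 in TAC-labelled libraries and 0.0739, 0.152 and 0.108 in Sham-labelled libraries, without overlap, a log2 difference of -1.01 (exact two-sided permutation p = 0.1, adjusted p = 0.167). Eno3 held 94.9% ± 0.964 of the summed FPKM of Eno1 and Eno3 in TAC-labelled libraries and 90.1% ± 3.16 in Sham-labelled libraries (SD, n = 3 each).

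None of the 8 genes of the lower pathway passed in edgeR, and limma called 0. An unadjusted p under 0.05 was reached by 1 (12.5%), against 20.9% of all genes. DESeq2 called 1, Eno3, against 7.44% of all genes to which it gave an adjusted p. Outside the enolases, the log2 differences ran between -0.21 for Pgam1, the brain-type phosphoglycerate mutase, and 0.089 for Bpgm, the bisphosphoglycerate mutase of red cells. Gapdh, often used as a loading control, had 171, 151 and 163 CPM in TAC-labelled libraries, against 204, 183 and 144 CPM in Sham-labelled libraries (log2 difference -0.13, SE 0.14, edgeR adjusted p = 0.647). Pgk1, phosphoglycerate kinase, had a log2 difference of -0.13 (SE 0.15). Pkm, pyruvate kinase, and Pgam2, the muscle mutase, had 0.017 (SE 0.14) and 0.012 (SE 0.16), both of the opposite sign when library totals were left unscaled. Pkm averaged 731 ± 116 CPM in TAC-labelled libraries and 722 ± 35.3 CPM in Sham-labelled libraries (SD, n = 3 each). Pgam2 averaged 311 ± 45.6 CPM in TAC-labelled libraries and 308 ± 45.3 CPM in Sham-labelled libraries (SD, n = 3 each). For Pgk1 the averages were 223 ± 39.8 CPM in TAC-labelled libraries and 244 ± 20.0 CPM in Sham-labelled libraries (SD, n = 3 each). TAC 3 was the lowest library for Pgk1, Eno1, Pkm, Ldha and Pgam2. Pgam1 had 53.0, 40.0 and 48.5 CPM in TAC-labelled libraries, against 43.2, 66.2 and 54.3 CPM in Sham-labelled libraries, and Bpgm had 26.0, 26.6 and 17.2 CPM in TAC-labelled libraries, against 24.6, 18.0 and 23.1 CPM in Sham-labelled libraries, with overlapping groups in both. The ratio of Pgam1 to Pgam2 was 0.0749, 0.0526 and 0.0856 in TAC-labelled libraries and 0.0555, 0.101 and 0.0931 in Sham-labelled libraries, a log2 difference of -0.21 (exact two-sided permutation p = 0.5, adjusted p = 0.536). Gapdh, Pgam1, Pgk1, Eno1 and Ldha have processed copies elsewhere in the genome, such as Eno1b with 972 and Pgam1-ps2 with 715 counts over the 6 libraries. No source says how shared reads were assigned, and the levels of these genes are uncertain.

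Lactate dehydrogenase is a tetramer of an A subunit, known from skeletal muscle, and a B subunit, which prevails in the heart. Ldhb had 782, 664 and 819.6 CPM in TAC-labelled libraries 1, 2 and 3, against 615, 497 and 536 CPM in Sham-labelled libraries 1, 2 and 3. The groups did not overlap, with Sham 1 nearest to the TAC-labelled libraries (log2 difference 0.46, SE 0.13, edgeR adjusted p = 0.124), and DESeq2 called the gene (adjusted p = 0.0398). Ldha had 402, 369 and 307 CPM in TAC-labelled libraries, against 341, 355 and 318 CPM in Sham-labelled libraries, with TAC 1 the highest and TAC 3 the lowest library (log2 difference 0.089, SE 0.13, edgeR adjusted p = 0.739). Ldhb held 82.9% ± 2.83 of the summed FPKM of the pair in TAC-labelled libraries and 79.0% ± 2.21 in Sham-labelled libraries (SD, n = 3 each). The Ldha to Ldhb ratio was 0.221, 0.238 and 0.161 in TAC-labelled libraries and 0.238, 0.306 and 0.254 in Sham-labelled libraries, with a slight overlap between TAC 2 and Sham 1, a log2 difference of -0.38 (exact two-sided permutation p = 0.2, adjusted p = 0.231).

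**Figure D3:**
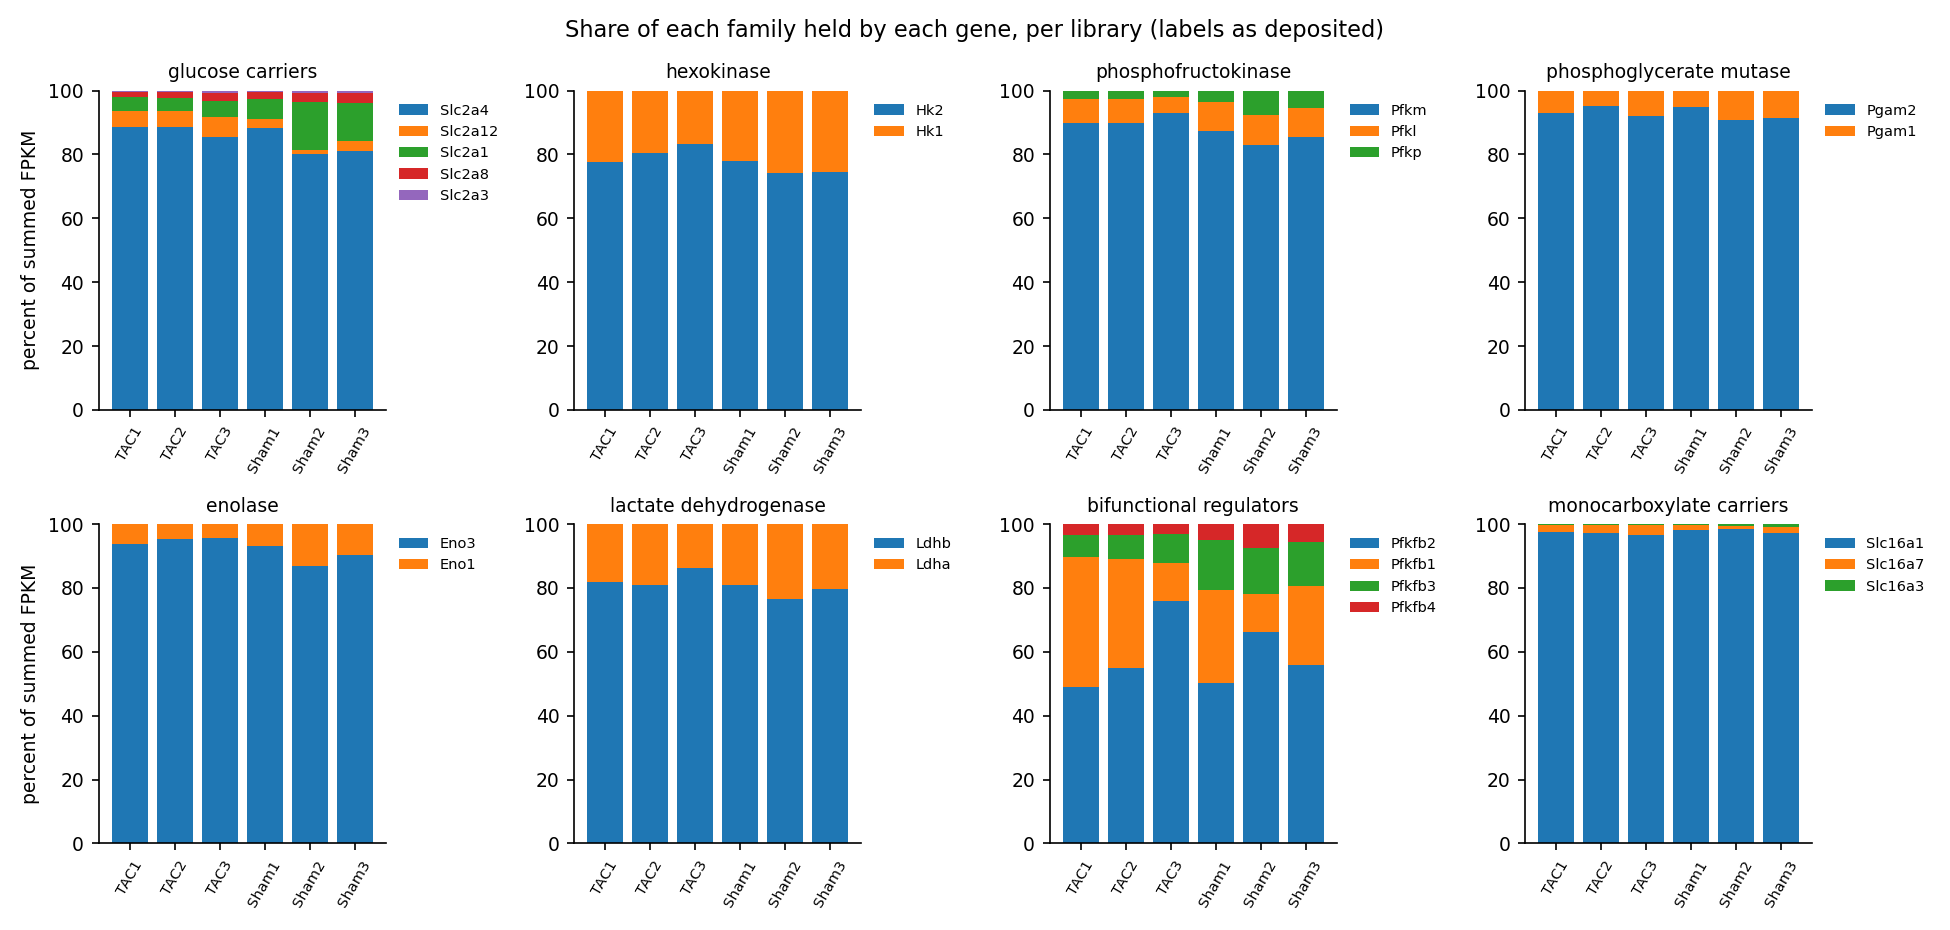
Share of the summed FPKM of each isozyme or carrier family held by each gene, in percent, stacked to 100% for every library. Only the listed members of a family are counted. Slc2a4, Hk2, Pfkm, Pgam2, Eno3, Ldhb and Slc16a1 hold most of their families in all 6 libraries, and the Slc2a1 part is wider in Sham 2 and Sham 3.

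Of the 4 bifunctional regulators, 3 did not overlap between the groups, against 27% of all genes tested, and 2 had an unadjusted p under 0.05, against 20.9%. None passed in edgeR and limma called 0, while DESeq2 called 1, against 7.44% of all genes to which it gave an adjusted p. Pfkfb2, the heart isoform, had 84.1, 87.7 and 107 CPM in TAC-labelled libraries 1, 2 and 3, against 69.2, 64.9 and 61.8 CPM in Sham-labelled libraries 1, 2 and 3, with TAC 3 the highest and no overlap between the groups (log2 difference 0.51, SE 0.12, edgeR adjusted p = 0.0867). DESeq2 called it (adjusted p = 0.0204). Pfkfb3, an inducible isoform with high kinase activity, had 14.5, 14.6 and 15.9 CPM in TAC-labelled libraries, against 26.1, 17.3 and 18.9 CPM in Sham-labelled libraries, lower in every TAC-labelled library, with Sham 1 the highest (log2 difference -0.47, SE 0.17, edgeR adjusted p = 0.181). Without Sham 1 its log2 difference was -0.28. Pfkfb4, known from testis, was scarce at 3.38, 3.16 and 2.49 CPM in TAC-labelled libraries, against 3.97, 4.10 and 3.47 CPM in Sham-labelled libraries and did not overlap either (log2 difference -0.35, SE 0.20, edgeR adjusted p = 0.365). The Pfkfb3 to Pfkfb2 ratio was 0.140, 0.135 and 0.120 in TAC-labelled libraries and 0.307, 0.217 and 0.248 in Sham-labelled libraries, a log2 difference of -0.95 (exact two-sided permutation p = 0.1, adjusted p = 0.167). For Pfkfb4 to Pfkfb2 the ratio was 0.0716, 0.0641 and 0.0413 in TAC-labelled libraries and 0.102, 0.112 and 0.10 in Sham-labelled libraries, a log2 difference of -0.87 (exact two-sided permutation p = 0.1, adjusted p = 0.167). Pfkfb2, with 9996 counts over the 6 libraries, overlaps the locus of Yod1, with 3140.

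Pfkfb1, the liver and muscle isoform, varied widely among the libraries of each label. It stood at 23.4, 18.3 and 5.59 CPM in TAC-labelled libraries 1, 2 and 3, against 13.3, 3.88 and 9.06 CPM in Sham-labelled libraries 1, 2 and 3. TAC 3 and Sham 2 were the lowest libraries, and the groups overlapped (log2 difference 0.86, SE 0.56, edgeR adjusted p = 0.427). Its ratio to Pfkfb2 was 0.836, 0.626 and 0.157 in TAC-labelled libraries and 0.577, 0.180 and 0.441 in Sham-labelled libraries, a log2 difference of 0.28 (exact two-sided permutation p = 0.7, adjusted p = 0.700). Without TAC 1 that difference was -0.19 and without Sham 2 it was -0.22. Pfkfb1, with 1508 counts over the 6 libraries, lies on chromosome X over the locus of Apex2, with 2956.

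Among the monocarboxylate carriers, Slc16a7, which encodes the high-affinity carrier MCT2 (chromosome 10, 125226464 to 125328963), rose. It had 8.17, 7.74 and 9.0 CPM in TAC-labelled libraries 1, 2 and 3, against 4.73, 3.18 and 3.91 CPM in Sham-labelled libraries 1, 2 and 3. All TAC-labelled libraries lay above all the Sham-labelled ones, and the level was 2.11-fold higher (log2 difference 1.08, SE 0.19, edgeR adjusted p = 0.0480). The call was lost without TAC 1 (log2 difference 1.09, adjusted p = 0.125), TAC 2 (1.13, 0.112), TAC 3 (1.02, 0.0988), Sham 2 (0.94, 0.130) or Sham 3 (1.07, 0.136), and kept without Sham 1. It was also just lost with limma on log2(FPKM + 0.1), at 0.95 on that scale (adjusted p = 0.0540).

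Slc16a3, which encodes MCT4, the lactate exporter of glycolytic cells (chromosome 11, 120948480 to 120960868), had the largest negative log2 difference of the members. It was scarce, at 1.64, 1.22 and 1.07 CPM in TAC-labelled libraries 1, 2 and 3, against 2.10, 3.78 and 4.89 CPM in Sham-labelled libraries 1, 2 and 3, on 21 to 34 counts in TAC-labelled libraries and 44 to 107 in Sham-labelled libraries. The groups did not overlap, and Sham 1 was nearest to the TAC-labelled libraries (log2 difference -1.44, SE 0.36, edgeR adjusted p = 0.0908). It passed without Sham 1 (log2 difference -1.71, adjusted p = 0.0433) and with DESeq2 (adjusted p = 0.0119). Slc16a1, the gene of MCT1, which takes lactate up in the heart, had 329, 281 and 253 CPM in TAC-labelled libraries, against 297, 289 and 224 CPM in Sham-labelled libraries, with overlapping groups (log2 difference 0.090, SE 0.15, edgeR adjusted p = 0.778).

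Slc16a1 made up nearly all of these 3 carriers per length. It held 97.1% ± 0.483 of their summed FPKM in TAC-labelled libraries and 97.9% ± 0.540 in Sham-labelled libraries (SD, n = 3 each). Other genes of the Slc16a family were not counted in this share. The ratio of Slc16a7 to Slc16a1 was 0.0235, 0.0260 and 0.0337 in TAC-labelled libraries and 0.0150, 0.0104 and 0.0165 in Sham-labelled libraries, a log2 difference of 1.0 (exact two-sided permutation p = 0.1, adjusted p = 0.167). For Slc16a3 to Slc16a1 it was 0.00253, 0.00220 and 0.00214 in TAC-labelled libraries and 0.00358, 0.00662 and 0.0110 in Sham-labelled libraries, a log2 difference of -1.49 (exact two-sided permutation p = 0.1, adjusted p = 0.167). Neither ratio overlapped between the groups. With 1 added to each FPKM, which weighs on scarce genes, the differences were 0.53 for Slc16a7 (exact permutation p = 0.1) and -0.33 for Slc16a3 (exact permutation p = 0.3). Across all 15 ratios, 9 did not overlap, 7 lower and 2 higher in TAC-labelled libraries, and none could pass in a design of this size. The direction of a ratio depends on which gene was set on top. Many of the ratios share a gene, so they are not separate results, and no share for other gene pairs was computed.

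**Figure D4:**
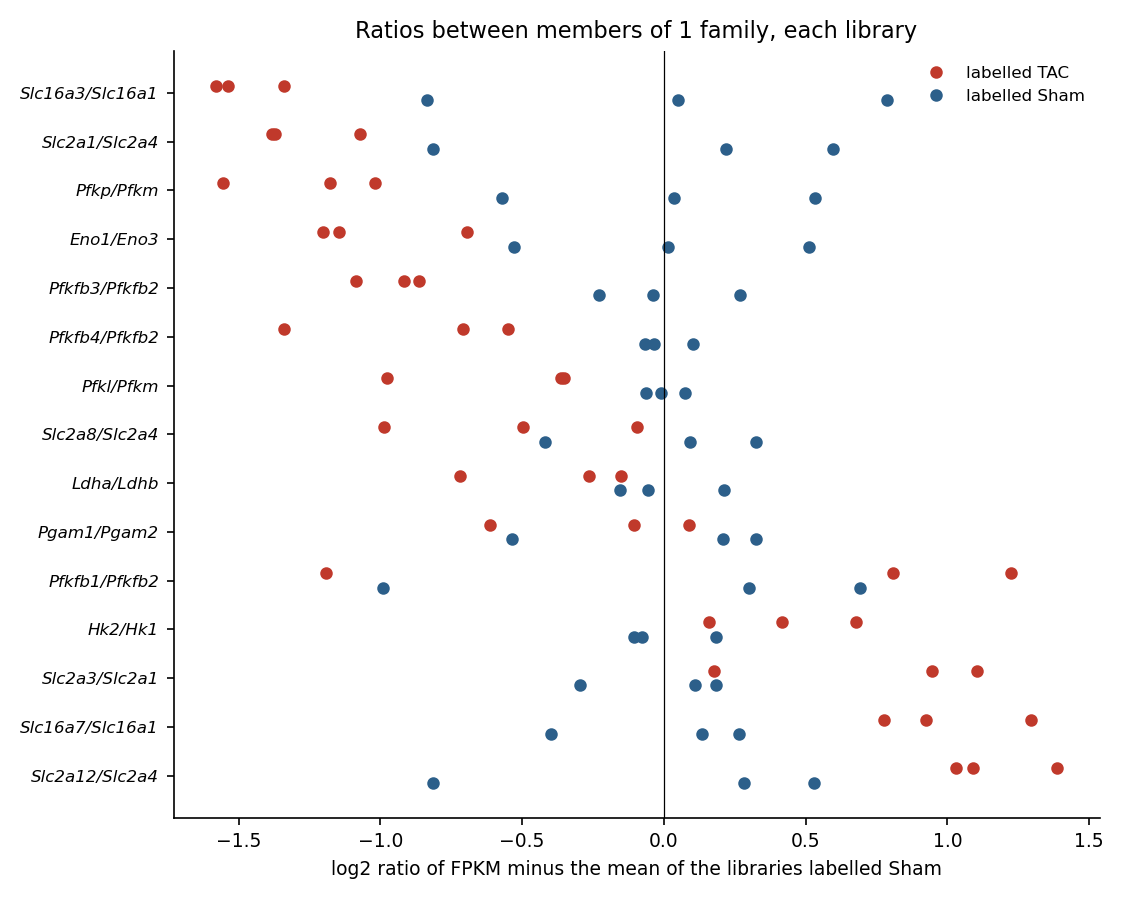
Log2 ratio of FPKM between 2 members of a family in each library, shifted so that the mean of the Sham-labelled libraries is 0 (points; red TAC, blue Sham). Slc16a3/Slc16a1, Slc2a1/Slc2a4 and Pfkp/Pfkm lie farthest to the left in TAC-labelled libraries, and Slc2a12/Slc2a4 and Slc16a7/Slc16a1 lie to the right.

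Cell type markers differed between the labels alongside some of these genes. The summed level of 7 cardiomyocyte markers was 46129 to 62160.5 CPM in TAC-labelled libraries and 33203 to 45053 CPM in Sham-labelled libraries. The groups did not overlap in 6 of the 7, against 27% of all genes tested. The 16 members with a positive log2 difference, the sign of these markers, included the 7 higher without overlap (Slc2a12, Pfkm, Eno3, Ldhb, Pfkfb2, Hk2 and Slc16a7). For 7 fibroblast markers the sum was 784 to 942 CPM in TAC-labelled libraries and 1811 to 3062 CPM in Sham-labelled libraries, with 6 of 7 not overlapping, and for 7 macrophage markers it was 161 to 295 CPM in TAC-labelled libraries and 362 to 387 CPM in Sham-labelled libraries, also 6 of 7. The 14 members with a negative log2 difference, the sign of the fibroblast and macrophage markers, included the 5 lower without overlap (Slc2a1, Pfkp, Slc16a3, Pfkfb3 and Pfkfb4). The 7 and the 5 were set apart by their direction, so a sign shared with markers was fixed in advance. The 7 endothelial markers summed to 984 to 1016 CPM in TAC-labelled libraries and 846 to 1020.3 CPM in Sham-labelled libraries, and these sums overlapped. The part of these cell types in the members' differences was not tested, and in bulk tissue fewer cells of a type and less RNA per cell cannot be told apart.

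Blood genes, which bear on Bpgm, summed to 275 to 595 CPM in TAC-labelled libraries and 268 to 346 CPM in Sham-labelled libraries for 6 erythroid markers. The 6 neutrophil markers summed to 1.83 to 27.1 CPM in TAC-labelled libraries, TAC 1 being the highest, and 3.88 to 8.68 CPM in Sham-labelled libraries. Skeletal muscle, which shares Eno3, Pgam2 and Slc2a4 with the heart, was nearly absent, with 6 markers at 0.677 to 0.915 CPM in TAC-labelled libraries and 1.0 to 1.34 CPM in Sham-labelled libraries, and Myh4 at 0 in all 6. The 5 adipocyte markers summed to 0.0483 to 2.44 CPM in TAC-labelled libraries and 0 to 1.09 CPM in Sham-labelled libraries. The 6 smooth muscle and pericyte markers summed to 1273 to 1491 CPM in TAC-labelled libraries and 1168 to 1492 CPM in Sham-labelled libraries, and the 4 nerve markers to 5.50 to 7.69 CPM in TAC-labelled libraries and 3.50 to 6.19 CPM in Sham-labelled libraries. Of 4 atrial markers only Nppa did not overlap between the groups. The other 3 (Myl7, Sln and Myl4) summed to 0.677, 8.14 and 43.9 CPM in TAC 1, 2 and 3, against 39.5, 1.94 and 46.1 CPM in Sham 1, 2 and 3, high in TAC 3, Sham 1 and Sham 3.

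In 7 lists of other genes of the pathway no gene passed in edgeR, out of 78 tested, against 1.43% of all genes. An unadjusted p under 0.05 was reached by 18 of the 78, against 20.9% of all genes. DESeq2 called 8, against 7.44% of all genes to which it gave an adjusted p, and limma called 0. Among 21 regulators of glucose uptake, Tbc1d4, the Rab regulator that holds GLUT4 inside the cell, had 168, 147 and 196 CPM in TAC-labelled libraries, against 102, 72.5 and 117 CPM in Sham-labelled libraries (log2 difference 0.81, SE 0.19, edgeR adjusted p = 0.0838), and Prkab2, a subunit of AMP-activated kinase, 45.0, 38.7 and 43.8 CPM in TAC-labelled libraries, against 73.2, 218 and 83.3 CPM in Sham-labelled libraries (log2 difference -1.55, SE 0.39, edgeR adjusted p = 0.0953). Neither gene overlapped between the groups, and Sham 2 was far above the rest for Prkab2. The median log2 difference of the 21 was 0.061. Among 16 transcription factors and regulators of glycolytic genes the smallest p-values were those of Myc (log2 difference -1.44, adjusted p = 0.0854) and Mlxipl, the glucose-sensing factor ChREBP (0.69, 0.127), with a median of 0.052 over the list.

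The branches that leave glycolysis gave the following log2 differences by edgeR. In the polyol pathway, which turns glucose into fructose by way of sorbitol, the sorbitol dehydrogenase gene Sord had 112, 103 and 129.8 CPM in TAC-labelled libraries, against 75.4, 50.0 and 63.9 CPM in Sham-labelled libraries, without overlap and just short of the threshold (log2 difference 0.87, SE 0.17, edgeR adjusted p = 0.0551). The 8 genes of the pentose phosphate pathway split into 2 with a positive and 6 with a negative difference, and the smallest p-values were those of Pgd, 6-phosphogluconate dehydrogenase (-0.46, adjusted p = 0.133) and Rpe, ribulose phosphate epimerase (-0.82, adjusted p = 0.209), and the median over the list was -0.049. For the 6 tested genes of the hexosamine pathway, 1 positive and 5 negative, they were those of Pgm3, phosphoacetylglucosamine mutase (-0.29, adjusted p = 0.314) and Ogt, which attaches the sugar to proteins (0.27, adjusted p = 0.319), and the median over the list was -0.26. The 10 genes of the shuttles that pass electrons of cytosolic NADH into mitochondria split into 8 positive and 2 negative. The smallest p-values were those of Mdh2, mitochondrial malate dehydrogenase (0.36, adjusted p = 0.123) and Got2, mitochondrial aspartate aminotransferase (0.34, adjusted p = 0.124), and the median over the list was 0.28. For the 14 genes of pyruvate entry, 10 positive and 4 negative, they were those of Pdp2, a phosphatase that activates pyruvate dehydrogenase (0.88, adjusted p = 0.168) and Pdha1, a subunit of that enzyme (0.31, adjusted p = 0.186), and the median over the list was 0.084. Of the 3 polyol genes Khk, ketohexokinase, came next, at 0.43 (adjusted p = 0.300).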

How the data were processed

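Gene counts and FPKM were deposited by the authors in 1 table. Per the submitters' processing notes, HISAT2 2.0.4 and StringTie 1.3.0 were used with GRCm38 (mm10). No source used here gives the counting program, strand use or annotation version. The deposited counts are whole numbers, and the FPKM deposited by the authors equal those counts divided by a length and the library's total gene count. That length exceeds the span of the gene in 5.2% of genes and 5 of the 31 members (Slc2a4, Aldoa, Aldoc, Tpi1, Gapdh). FPKM levels of these genes are understated, while differences between libraries are not touched. Other members may be affected too, since no source used here says how the length was set. It was 11888 for Pfkp against 2957 for Pfkm, and 7863 for Eno1 against 3143 for Eno3. Levels and family shares in FPKM depend on these lengths.

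Group differences were tested on the counts with edgeR 4.0.16 (quasi-likelihood, TMM, filterByExpr with a minimum count of 10, no block, Benjamini-Hochberg over all 15198 genes tested, threshold 0.05) in R 4.3.3, for all 6 libraries. The SE of a log2 difference was derived from its F statistic. Ratios of FPKM within a family were compared by exact permutation over libraries, 15 of 16 ratios, since Aldoc has a 0. Alternatives were median-of-ratios scaling, unscaled totals, no filter, DESeq2 1.42.0, limma 3.58.1 on log2(FPKM + 0.1) and log2(FPKM + 1), a replicate block and each library left out, and for ratios CPM without length, FPKM + 1, a sign-flip over replicate numbers and each library left out. All members are reported. Of each list of other pathway genes, the 2 with the smallest p were named where none passed. A further list of isozymes and carriers enters the counts over pathway genes and is otherwise not reported here. Hexosamine gene Oga was not matched. Members and lists were chosen with earlier results of these data known. Library totals were 17399510 to 28401399 counts, and low genes such as Slc16a3 are limited by them. lncRNA transcripts were not used here.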

Additional observations from a re-analysis of the deposited data

How the results depend on the processing

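Genes past the threshold over the whole table numbered 217, and 338 with unscaled totals, 432 with no filter, 1164 with DESeq2 and 41 under a replicate block, where none of the members or the other pathway genes passed (0 of each). Over all 8 lists of other pathway genes, with 93 tested, 1 passed, against 1.43% of all genes. DESeq2 called 9, against 7.44% of all genes to which it gave an adjusted p, and no filter gave 2. DESeq2 called 6 members higher and 3 lower in TAC-labelled libraries, and limma on log2(FPKM + 0.1) 0 members higher. Leaving out 1 library gave 0 to 397 genes over the table, 0 to 2 members higher, 0 to 2 members lower and 0 to 4 other pathway genes. It was 0 over the table without TAC 1, where 2564 genes had an unadjusted p under 0.05, and 397 without Sham 1. These fits rest on 5 libraries. The deviations of libraries with the same number had correlations of -0.115, -0.139 and -0.093. With 3 libraries per label such values cannot show whether the numbers pair the libraries.

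Over 13 alternatives 19 of the 30 members tested kept their sign, and over their own alternatives 14 of the 15 ratios did. The sign changed for members near 0: with unscaled totals Tpi1 had -0.013, Pgam2 -0.051 and Pkm -0.048, with limma on log2(FPKM + 0.1) -0.0084, -0.052 and -0.059, and on log2(FPKM + 1) -0.0084, -0.052 and -0.058. Leaving out 1 library, the log2 difference ran between -0.22 and 0.15 for Slc2a3, between -0.22 and 0.10 for Slc2a8, between -0.27 and 0.062 for Hk1, between -0.26 and 0.048 for Gpi1, between -0.12 and 0.074 for Pfkl, between -0.056 and 0.16 for Tpi1, between -0.22 and 0.012 for Pgk1, between -0.080 and 0.13 for Pgam2, between -0.053 and 0.14 for Pkm, between -0.028 and 0.18 for Slc16a1, between -0.033 and 0.27 for Bpgm. The difference in the log2 ratio of Pfkfb1 to Pfkfb2 ran between -0.22 and 1.02. With FPKM + 1 the differences in the log2 ratios of Pfkfb3 and Pfkfb4 to Pfkfb2 were -0.62 and -0.49. The cause of these changes was not tested. Genes with few counts, such as Slc16a3, Slc2a3 and Pfkfb4, are limited by depth.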

Other observations

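The order of the members by level depended on the unit. Pgam2 was first by mean FPKM over the 6 libraries (368 FPKM) and ranked 10 by CPM (309.8 CPM), and Aldoa was first by CPM (1275 CPM) and ranked 5 by FPKM (216 FPKM). Gapdh ranked 16 by FPKM and 15 by CPM, below Pgk1 and Tpi1 on both scales. The length behind its FPKM was 8626, against a gene span of 4753. No source says how reads shared with processed copies of Gapdh and Pgk1 were assigned. The place of Gapdh among the members is therefore uncertain on both scales. Shares shifted too: without length, Pfkp held 8.78% of the phosphofructokinase counts in TAC-labelled libraries and 18.2% in Sham-labelled libraries, and Ldha 32.3% of the lactate dehydrogenase counts in TAC-labelled libraries and 38.2% in Sham-labelled libraries.

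The 31 members together took 0.783%, 0.765% and 0.715% of the scaled counts in TAC 1, 2 and 3, against 0.743%, 0.665% and 0.611% in Sham 1, 2 and 3. In 10 of the 12 members whose groups did not overlap, Sham 1 was the Sham-labelled library nearest to those labelled TAC. Over the 4102 genes of the table whose groups did not overlap, that library was the nearest in 51.9%, Sham 2 in 16.4% and Sham 3 in 31.7%.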
